A study of Mus musculus with 8 samples.

Results

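The axon guidance ligands and receptors described here are the semaphorins and their receptors (plexins and neuropilins), the Eph receptors and their ephrin ligands, the Slit ligands and Robo receptors, and the netrins and netrin-G ligands with Dcc and the Unc5 receptors. They were chosen by gene symbol alone. The rule gave 69 genes, of which 65 were among the 17836 genes of the D1Tom table and 68 among the 15769 of the GTE table, with 64 in both. Unc5a to Unc5d were not analysed in D1Tom, Epha1 was read only in D1Tom, and Ntn3 was not analysed in either.

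Cells came from the frontal isocortex of C57BL/6J-backcrossed mice at postnatal day 7 and flow cytometry took either cells positive for the Drd1a-tdTomato line 6 BAC (D1Tom) or golli-τ-eGFP-positive cells (GTE). Every animal, controls included, carried Foxp2 flox/flox alleles, and the conditional knockouts (cKO) carried Emx1-Cre as well, a driver that acts in the cortical excitatory and glial lineage and spares interneurons. Each sort held 2 control and 2 cKO libraries, 8 in all, and how many animals a library held is not given in the sources used here. In D1Tom only cKO 2 was male, and in GTE only cKO 2 was female.

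Guidance cues are secreted or membrane-bound proteins that attract or repel growing axons and migrating cells. Class 3 semaphorins are secreted and act through neuropilins, which bind the ligand, and plexins, which signal, while membrane semaphorins bind plexins directly. Ephrins are themselves membrane-anchored and can signal back into the cell that carries them, Slits repel through Robo receptors, and netrin 1 attracts through Dcc and repels through Unc5 receptors. In the developing cortex these systems shape corticofugal and callosal axons, interneuron migration, the oligodendrocyte lineage and blood vessels.

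Libraries held 27323298 to 36379194 counts in D1Tom and 4878370 to 6092396 in GTE, and the guidance genes took 0.200% to 0.254% of them in D1Tom and 0.0731% to 0.198% in GTE. Of the 11391 D1Tom cell barcodes 97 were found in more than 1 library, and of the 11316 in GTE 63. Both sorts held glia as well as neurons: the summed level of 8 astrocyte markers was 2927 to 4250 CPM (counts scaled to 1000000 per library) in D1Tom and 2394 to 6903 in GTE, against 444 to 749 and 130 to 430 for 5 markers of excitatory neurons. GTE cKO 1 stood apart, with 7 oligodendrocyte markers at 2399 CPM against 218 to 409 in the other GTE libraries. Foxp2, the targeted gene, was at 36.3 and 39.1 CPM in the D1Tom controls and 26.5 and 19.4 in the cKO libraries (edgeR log2 fold change -0.67, SE 0.16, adjusted p = 0.998). In layer 6 corticothalamic-like cells, a class known for Foxp2, it was at 266 and 224 CPM against 76.2 and 60.5 (log2 fold change -1.87, SE 0.21, adjusted p = 0.0901, or 2.11e-08 with the replicate block). Foxp2 also lay below both controls in both cKO libraries in layer 5 pyramidal tract-like and dividing cell-like cells. It overlapped between groups in oligodendrocyte precursor-like cells (28.9 and 37.1 CPM against 40.8 and 27.9) and astrocyte-like cells (16.3 and 41.4 against 33.2 and 13.3). Upper layer-like cells overlapped too. In GTE the Foxp2 levels overlapped, at 9.52 and 46.9 CPM in controls and 25.4 and 7.43 in cKO. The kit counts 3′ ends, and the floxed part of the gene is not given in the sources used here.

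D1Tom cells fell into 28 clusters, made without the guidance genes, and 20 of them took a name ending in "-like" from marker lists. Levels are given as CPM, the counts of a gene per 1000000 counts of the summed cells of a class in a library. A CPM level depends on the gene as well as on its abundance in 3′ counting, so levels are compared between classes for 1 gene and not between genes. Of the 65 members 52 reached 20 CPM in at least 1 of the 12 named classes with enough cells. Of these, 8 were highest in layer 5 pyramidal tract-like cells, 7 in committed oligodendrocyte precursor-like cells, 7 in endothelial-like cells and 6 in upper layer-like cells. The levels below were ranked on the values themselves over the named classes and carry no test. Unnamed clusters were higher for some genes, as cluster 4 was for Slit2 at 69.5 CPM.

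**Figure D1:**
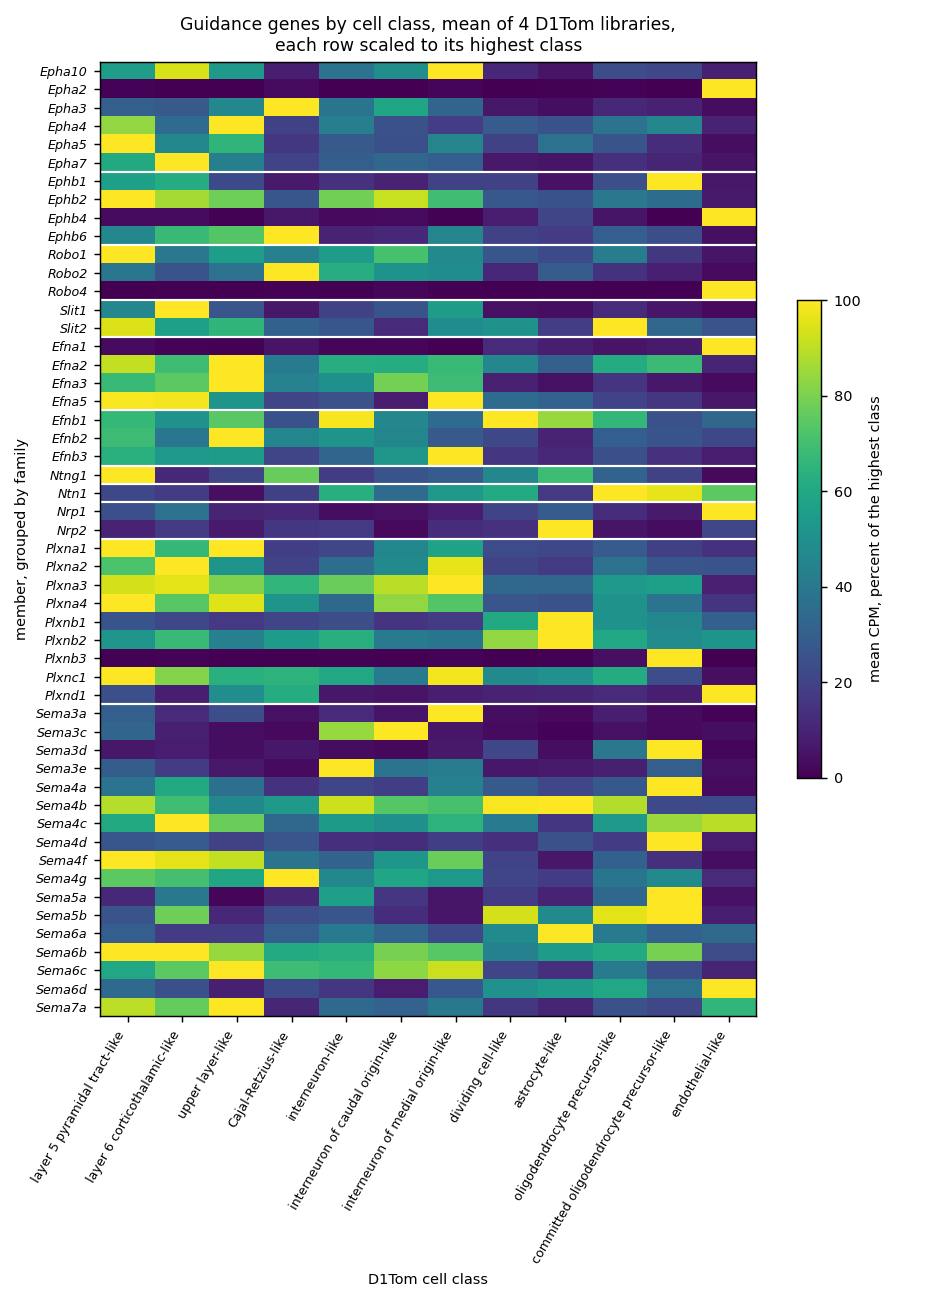
Mean CPM of the 52 guidance genes that reached 20 CPM, in 12 D1Tom cell classes (columns), each gene scaled to its highest class (colour, percent), with families separated by white lines. Robo4, Epha2 and Plxnb3 rows are bright in a single class, whereas rows such as Sema4b, Plxnb2 and Plxna3 are spread over most classes.

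Among the secreted semaphorins, Sema3c was highest in interneuron of caudal origin-like cells, at 357 and 285 CPM in controls and 359 and 253 in cKO. Interneuron-like cells overlapped with them at a mean of 265 CPM, while interneuron of medial origin-like cells averaged 19.3 CPM. Sema3a, a repellent for cortical axons, was instead highest in interneuron of medial origin-like cells, at 75.8, 95.5, 85.5 and 73.3 CPM (control 1, control 2, cKO 1, cKO 2). The next class, layer 5 pyramidal tract-like cells, had a mean of 24.8 CPM, and the ranges did not overlap. Sema3e, a ligand of Plxnd1, was highest in interneuron-like cells at 30.8 ± 12.3 CPM (SD, n = 4), with 16.6 CPM in cKO 2 overlapping the next class.

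Several semaphorin genes were highest in committed oligodendrocyte precursor-like cells, a class of 15, 29, 41 and 36 cells (control 1, control 2, cKO 1, cKO 2). Plxnb3, the plexin through which Sema5a signals, was at 116, 113, 122 and 71.3 CPM (control 1, control 2, cKO 1, cKO 2), and the next class, oligodendrocyte precursor-like cells, had a mean of 4.53 CPM. This was a 23.3-fold difference between neighbouring stages of the lineage, with no overlap between libraries. The membrane semaphorin Sema4d was at 58.1 to 99.1 CPM there, above every library of the next class, whose mean was 23.1 CPM. Sema3d was at 56.0 to 133.9 CPM, also apart from the next class. Sema5a itself averaged 315 ± 78.2 CPM (SD, n = 4) in the committed class and 178 CPM in interneuron-like cells, and these ranges overlapped at 306 CPM in control 1 of the interneuron-like cells. Ephb1, an ephrin-B receptor, was also highest in the committed class at 130 ± 52.3 CPM, with layer 6 corticothalamic-like cells next at 80.5 CPM.

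Endothelial-like cells had the highest levels of several receptors. Robo4, the Robo receptor of blood vessels, was at 67.2 and 70.4 CPM in controls and 51.8 and 72.2 in cKO, and no other named class averaged above 0.833 CPM. Epha2 followed the same pattern at 14.5 to 28.6 CPM against a next mean of 0.627 CPM. Efna1, a ligand of EphA receptors, was at 55.3 to 89.4 CPM against 9.16 CPM in dividing cell-like cells. Ephb4, the venous partner of ephrin-B2, was at 38.4 to 54.3 CPM against 9.62 CPM in astrocyte-like cells. The co-receptor Nrp1 and its plexin Plxnd1 were also highest there, at 118 ± 22.5 and 128 ± 26.7 CPM (SD, n = 4). The class was named from endothelial markers, and the mural cell gene Rgs5 was among its leading genes. It held 20 to 147 cells per library.

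In astrocyte-like cells, a cluster led by Gfap but also by the immune genes Cd74, H2-Ab1 and H2-Aa, the co-receptor Nrp2 stood out at 151, 249, 190 and 142 CPM (control 1, control 2, cKO 1, cKO 2). Endothelial-like cells were next at 39.3 CPM, a 4.66-fold difference. Sema6a, a transmembrane semaphorin that acts on A-type plexins, was at 443 to 541 CPM, with dividing cell-like cells next at 239 CPM. Plxnb1 averaged 93.8 CPM in astrocyte-like cells and 57.0 in dividing cell-like cells, and there the libraries overlapped.

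Excitatory classes differed in their Eph receptors and ephrins. Epha5 was highest in layer 5 pyramidal tract-like cells at 871, 617, 802 and 598 CPM, above every library of the upper layer-like cells, whose mean was 473 CPM. Epha7 averaged 222 CPM in layer 6 corticothalamic-like cells and 134.4 CPM in layer 5 pyramidal tract-like cells, and the libraries overlapped. Epha4 and its ligands Efnb2 and Efna3 were highest in upper layer-like cells at 334, 170 and 100.2 CPM, each overlapping the class next to it. Efnb3, a midline repellent, was at 196 to 330 CPM in interneuron of medial origin-like cells, apart from layer 5 pyramidal tract-like cells at 153 CPM. Robo2 averaged 416 ± 88.8 CPM (SD, n = 4) and Epha3 119 ± 32.7 CPM in Cajal-Retzius-like cells, the early layer 1 neurons. The next class of each overlapped with it, at 259 CPM for Robo2 in interneuron-like cells and 70.3 CPM for Epha3 in interneuron of caudal origin-like cells. Among the Slits, Slit1 was highest in layer 6 corticothalamic-like cells at 22.4 to 56.4 CPM and Slit2 in oligodendrocyte precursor-like cells at 25.9 to 47.4 CPM, neither apart from its next class. Ntn1 was at 33.1 CPM in oligodendrocyte precursor-like and 31.9 CPM in committed oligodendrocyte precursor-like cells, which did not differ beyond their spread.

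Differences between 3 pairs of classes were tested with each library as a block. The clusters were built without the guidance genes, although genes that vary with the clustered genes will tend to differ between clusters. Layer 6 corticothalamic-like and upper layer-like cells differed in 34 of the 50 members tested by edgeR, 15 higher and 19 lower, against 31.1% of all 10616 genes tested (15.3% higher, 15.8% lower). Both classes were named from markers alone. Cluster 13, the larger part of the layer 6 corticothalamic-like class at 313 cells, also had the layer 6b genes Ctgf and Nxph4 among its leading genes. Sema5a was at 90.3 to 145 CPM in layer 6 corticothalamic-like cells and 2.40 to 8.51 CPM in upper layer-like cells (log2 difference 4.36, SE 0.20, adjusted p = 1.73e-12, higher in all 4 libraries). Its relative Sema5b (26.9 against 3.88 CPM, log2 difference 2.62), the netrin receptor Dcc (10.4 against 1.62 CPM, 2.23) and Slit1 (38.1 against 10.1 CPM, 1.80) were the other members with the largest differences in that direction. The opposite side was led by Plxnd1, the receptor of Sema3e, at 10.99 CPM in layer 6 corticothalamic-like and 63.0 CPM in upper layer-like cells (log2 difference -2.64, SE 0.27, adjusted p = 2.49e-07). Robo3 (log2 difference -2.24), a Robo family member of crossing axons, Epha4 (-1.61) and Efnb2 (-1.52) were also lower in layer 6 corticothalamic-like cells. Robo3 was low in both classes, at 1.52 against 6.78 CPM. It was not among the members called with finer clusters, without control 1 or without control 2, nor was Dcc with finer clusters or without control 1. The median log2 difference of the 50 members was 0.057, against -0.0025 for all genes, and its sign turned without cKO 1 (-0.096), without cKO 2 (-0.040) and with finer clusters (-0.20).

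The pooled interneuron classes and upper layer-like cells differed in 28 of the 54 members tested, 10 higher and 18 lower, against 31.1% of 11345 genes (15.1% higher, 16% lower). The pool included cluster 12 (322 cells), which also had raised neuroblast and dividing cell markers and held 24 and 15 control and 135 and 148 cKO cells. Without cluster 12, a run chosen after seeing the data, 31 of 52 members were called, against 35.9% of all genes. Sema5a was at 73.6 to 159 CPM in the interneuron classes and 2.40 to 8.51 CPM in upper layer-like cells (log2 difference 4.34, SE 0.22, adjusted p = 2.69e-07). Sema3c (log2 difference 4.20), Ntn1 (3.59) and Sema3e (3.27) were also higher in interneurons. Plxnd1 was at 2.07 to 12.7 CPM in interneuron classes and 51.1 to 74.2 CPM in upper layer-like cells, so that Sema3e and its receptor lay on opposite sides (log2 difference of Plxnd1 -3.10, SE 0.33, adjusted p = 4.23e-05). Robo3 (-3.43), Ephb6 (-2.16) and Slit3 (-1.86, adjusted p = 0.0124) were lower in interneurons. Slit3 lost its call without cKO 1 (adjusted p = 0.0574) and without control 2 (0.0633), and it was low, at 1.35 against 4.82 CPM. Robo3 was low as well, at 0.646 against 6.78 CPM, and was not among the members called with finer clusters. Slit3 was not among those called without control 1 or without cluster 12.

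Astrocyte-like and oligodendrocyte precursor-like cells differed in 35 of the 49 members tested, 12 higher and 23 lower in astrocyte-like cells, against 39.9% of 11191 genes (19.2% higher, 20.6% lower). The astrocyte-like class was cluster 7 alone, with 596 cells. Unnamed clusters 0 (1292 cells) and 3 (1014 cells), which also had raised astrocyte markers, were not in the test. The precursor class included cluster 5 (641 cells), which had Sox9, on the astrocyte list, among its leading genes. Nrp2 was at 142 to 249 CPM in astrocyte-like and 7.03 to 13.3 CPM in oligodendrocyte precursor-like cells (log2 difference 4.26, SE 0.21, adjusted p = 8.39e-08, higher in all 4 libraries). Efna4 (log2 difference 2.16), Ephb4 (1.98) and Sema6a (1.42) followed. Oligodendrocyte precursor-like cells had more Sema3d, at 25.4 to 49.6 against 1.40 to 5.05 CPM (log2 difference -3.26, SE 0.32, adjusted p = 9.68e-06). The secreted cues Ntn1 (-2.45) and Slit2 (-2.33) and the receptor Ephb1 (-2.20) were also lower in astrocyte-like cells. The median log2 difference of the 49 members was -0.47, against -0.036 for all genes.

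**Figure D2:**
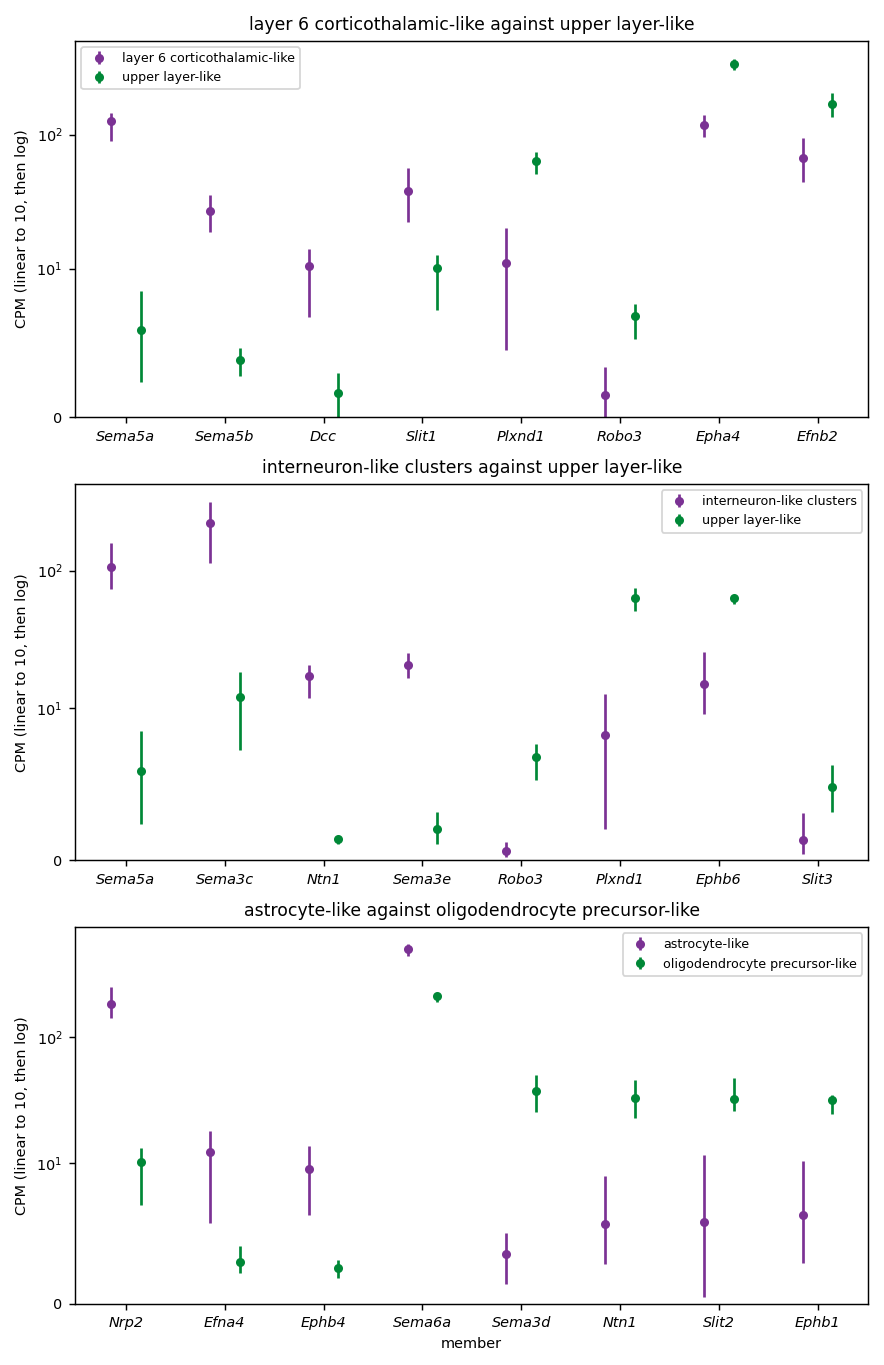
CPM of the 8 members with the largest called differences in each of 3 pairs of D1Tom cell classes, on an axis that is linear to 10 and logarithmic above. Points are means of 4 libraries and bars run from the lowest to the highest library, so Sema5a sits at 90.3 to 145 CPM in layer 6 corticothalamic-like cells and 2.40 to 8.51 CPM in upper layer-like cells.

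The comparison of genotypes asked whether loss of Foxp2 in the Emx1-Cre lineage went with other levels of the guidance genes. Over all D1Tom cells no member passed an adjusted p of 0.05 by edgeR among the 64 tested, and 0 had an unadjusted p under 0.05, as against 2.21% of all 14508 genes. Across all genes percent called was 0 at the adjusted threshold. DESeq2 also called 0 members (0.141% of all genes), as did edgeR with the replicate block (0.00689%). With that block, which the preparation days call for, 13 of the 64 had an unadjusted p under 0.05, against 9.25% of all genes. Within the batches 9 members were higher in cKO in both, 32 lower in both and 23 opposite, while of all genes 18.8% were higher and 37.8% lower in both. The median log2 fold change of the members was -0.11, against -0.0076 for all genes, and it ran from -0.16 without cKO 1 to -0.016 without control 2. Both cKO libraries lay above both controls for 6 members (9.7% of all genes) and below for 16 (13.7% of all genes). In sums over all cells, fewer cells of a type and less RNA per cell cannot be told apart.

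EphA receptors were 5 of the 16 members with lower cKO libraries, and 7 of the 8 EphA receptors tested had a negative log2 fold change. Of all 64 members tested 41 had a negative log2 fold change. Among all genes 13.7% had both cKO libraries below both controls and 37.8% were lower in cKO in both batches. Epha7, a repellent receptor in cortical maps, was at 89.9 and 78.8 CPM in controls and 77.1 and 52.2 in cKO (log2 fold change -0.33, SE 0.17, adjusted p = 0.998). Epha10 was at 14.0 and 12.2 CPM against 11.9 and 6.70, and Epha8 at 8.30 and 8.45 against 8.002 and 4.83. Epha4 (171 and 222 against 166 and 149 CPM) and Epha5 (316 and 315 against 309 and 226 CPM) had the same order, in which cKO 1 lay close to the controls and cKO 2 lower. Epha3 overlapped, at 37.9 and 30.9 CPM against 31.6 and 17.6. The summed level of 5 excitatory neuron markers followed the same order, at 749 and 745 CPM in the controls, 609 in cKO 1 and 444 in cKO 2, and its part in these values was not tested. As cKO 2 was also the only male D1Tom library, sex and genotype cannot be told apart within its batch.

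Other ligands and receptors on the low side included Efna1, at 7.01 and 11.5 CPM in controls and 3.63 and 5.75 in cKO (log2 fold change -0.91, SE 0.41, adjusted p = 0.998). Within both preparation batches its cKO library was lower, with log2 ratios of -0.95 and -1.002. Among named classes Efna1 was highest in endothelial-like cells. The 7 endothelial markers summed to 140 and 531 CPM in control 1 and control 2 and 79.8 and 282 in cKO 1 and cKO 2. They were lower in cKO within each batch as well, and their part in the Efna1 values was not tested. Within classes, both cKO libraries lay below both controls for Efna1 in 4 of the 12 named classes and above in 1. The 4 included endothelial-like cells, but also layer 6 corticothalamic-like and upper layer-like cells, where Efna1 averaged only 0.657 and 0.320 CPM. Over the members the median number of classes below was 2 and the highest 5. Sema4c (18.7 and 16.2 against 14.2 and 12.1 CPM), Plxna4, a signalling receptor for secreted semaphorins (87.1 and 80.0 against 76.4 and 50.9 CPM), and Robo1 (54.9 and 57.6 against 49.3 and 43.7 CPM) did not overlap between groups. Sema7a and Efnb2 had separate groups too, with log2 fold changes of -0.31 and -0.18. Ephb6 and Ephb2 overlapped (-0.31 and -0.35).

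The 6 members with both cKO libraries above both controls were Ntn1, Ntn4, Plxnb1, Plxnb2, Plxnb3 and Sema3d, none of them called. The 9 plexins tested had a median log2 fold change of 0.018. Ntn1 was at 9.57 and 10.1 CPM in controls and 13.2 and 12.0 in cKO (log2 fold change 0.42, SE 0.18, adjusted p = 0.998). Ntn4, a netrin of the basement membrane, was at 3.68 and 3.92 against 5.12 and 6.11 CPM. Plxnb1 was at 31.5 and 37.6 CPM in controls and 43.2 and 48.5 in cKO (log2 fold change 0.48, SE 0.20), higher in both batches. It was highest in astrocyte-like cells, and the astrocyte markers summed to 2927 and 3023 CPM in controls and 3217 and 4250 in cKO, a part that was not tested. Plxnb2 was at 31.5 and 28.5 against 31.7 and 33.5 CPM. Plxnb3 was at 1.18 and 2.11 against 3.26 and 2.27 CPM, and Sema3d at 8.63 and 8.70 against 10.8 and 10.1 CPM, without overlap in either case. Among named classes Plxnb3 and Sema3d were highest in committed oligodendrocyte precursor-like cells, and Sema3d was also at 25.4 to 49.6 CPM in oligodendrocyte precursor-like cells. The 5 markers of the committed class summed to 97.4 and 119 CPM in controls and 228 and 139 in cKO, and their part in these values was not tested. Sema5b (log2 fold change 0.44), Ephb3 (0.47) and Sema4a (0.24) overlapped between groups.

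**Figure D3:**
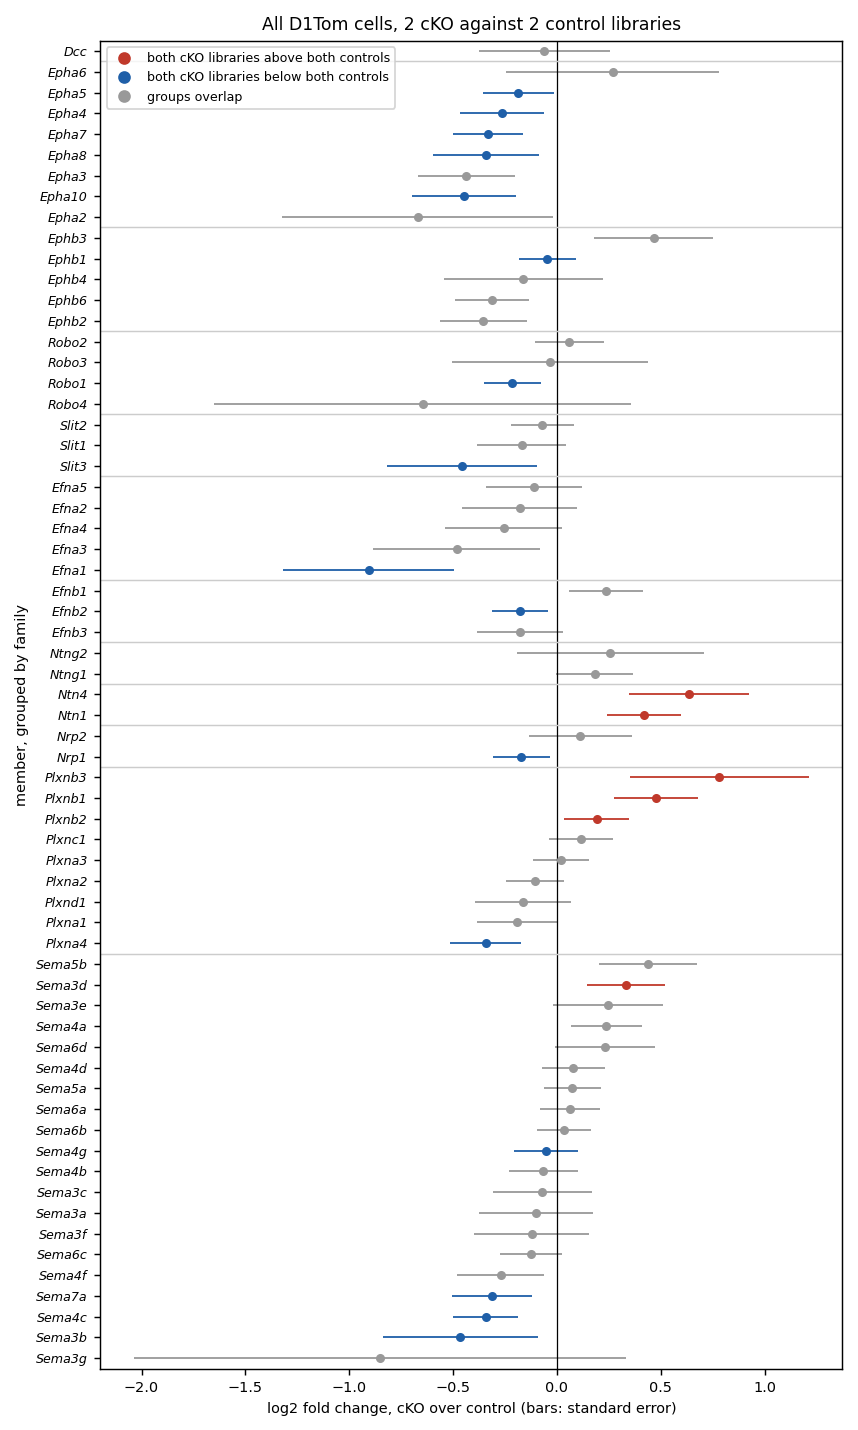
log2 fold change of cKO over control for the 64 members tested over all D1Tom cells, with its standard error, grouped by family. Coloured points have both cKO libraries above (red, 6 members) or below (blue, 16 members) both controls, and no member passed the adjusted threshold.

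Within cell classes 14 classes or unnamed clusters had at least 30 cells in every D1Tom library, and edgeR called 0 members in any of them, against 0.212% of all genes in astrocyte-like cells, 0.105% in interneuron-like cells, 0.0327% in cluster 1, 0.0111% in cluster 4, 0.00915% in cluster 9 and 0 in the others. With the replicate block edgeR called 21 of 644 member fits over these classes, 17 of them in interneuron-like cells, against 1.66% of the fits of all genes. At an unadjusted p under 0.05 without the block the counts ran from 0 members to 15. Layer 6 corticothalamic-like cells had 4 of 47, all higher in cKO, against 2.85% of all 10146 genes. In them 12 members had both cKO libraries above both controls and 1, Plxna4, below, against 16.6% and 13.8% of all genes. The median log2 fold change of the 47 members was 0.16, against -0.00037 for all genes, and it was 0.015 without cKO 1 and 0.088 without cluster 18.

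Nrp2 had the smallest p in layer 6 corticothalamic-like cells. It encodes the co-receptor of Sema3c and Sema3f and lies on chromosome 1, from 62703285 to 62818695 on the forward strand (GENCODE M21). Its level was 10.2 and 12.9 CPM in controls and 65.8 and 34.2 in cKO, with no overlap (log2 fold change 2.09, SE 0.38, unadjusted p = 0.000323, adjusted p = 0.999). With the preparation batch as a replicate block the adjusted p was 0.000352, and the cKO library was higher in both batches, with log2 ratios of 2.70 and 1.41. DESeq2 gave an adjusted p of 0.165. These values rest on 27, 23, 70 and 35 counts in control 1, control 2, cKO 1 and cKO 2, and a single cell held 23 of the 70.

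The class joined cluster 13, where the layer 6b genes Ctgf and Nxph4 were among the leading genes, and cluster 18, whose cells had a median of only 2574 counts. Control 2 had 95 of its 103 cells in cluster 13 and cKO 1 had 35 of its 100. In cluster 13 alone Nrp2 was at 9.51, 13.3, 65.9 and 33.5 CPM in the same order (log2 fold change 2.11, adjusted p = 0.975, chosen after seeing the data). Plxnc1, a receptor of the membrane semaphorin Sema7a, was next, at 30.9 and 21.3 CPM in controls and 72.4 and 41.0 in cKO (log2 fold change 1.07, SE 0.32, adjusted p = 0.999, or 0.0214 with the replicate block). Robo2 was at 74.5 and 94.8 against 149 and 117 CPM (log2 fold change 0.62, adjusted p = 0.999).

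With the replicate block 2 members were called in this class, against 0.808% of all genes. The promoters of these, Nrp2 and Plxnc1, are shown because Foxp2 is a forkhead transcription factor. They span 250 bases before to 50 after the RefSeq start, in GRCm38.p6, at chr1:62703067-62703366 on the forward strand and chr10:94944796-94945095 on the reverse strand. They were searched on both strands for the forkhead core TAAACA and the FOXP-type element ACAAAT, and neither holds a match, so no letters are in capitals. Of the 32851 promoters of this length 13.4% hold TAAACA and 12.6% hold ACAAAT, and of 72 promoters of the guidance genes 2.78% and 15.3%.
Nrp2: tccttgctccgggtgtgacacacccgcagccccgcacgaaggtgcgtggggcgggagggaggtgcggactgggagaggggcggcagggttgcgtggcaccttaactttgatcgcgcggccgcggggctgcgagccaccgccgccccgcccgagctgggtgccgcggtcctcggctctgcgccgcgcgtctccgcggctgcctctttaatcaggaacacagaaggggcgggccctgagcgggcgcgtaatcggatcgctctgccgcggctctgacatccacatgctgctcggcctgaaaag
Plxnc1: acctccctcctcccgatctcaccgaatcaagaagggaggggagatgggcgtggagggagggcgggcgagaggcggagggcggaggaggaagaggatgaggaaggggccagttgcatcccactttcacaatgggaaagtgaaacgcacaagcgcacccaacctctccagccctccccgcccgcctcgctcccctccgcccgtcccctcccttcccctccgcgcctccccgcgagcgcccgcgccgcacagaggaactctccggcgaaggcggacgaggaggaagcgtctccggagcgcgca

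In Cajal-Retzius-like cells both cKO libraries also lay above both controls for Nrp2, at 1.205 and 17.7 CPM in controls and 51.4 and 48.0 in cKO (log2 fold change 2.28, SE 0.78, adjusted p = 1, or 0.0394 with the replicate block, which called 1 member here and 0.359% of all genes). The counts behind it were 1, 20, 41 and 38 in control 1, control 2, cKO 1 and cKO 2, and 1 cell held 19 of the 41. Nrp1, the other neuropilin, was at 0 and 5.32 CPM against 27.6 and 19.0. Upper layer-like cells joined cluster 6 with cluster 27, which held 26 and 39 control cells and 0 cKO cells. In them Nrp2 was at 8.35 and 10.3 CPM against 17.6 and 15.9 (log2 fold change 0.84, SE 0.31, adjusted p = 0.999), and in cluster 6 alone at 8.76 and 10.97 against 17.6 and 15.9. In interneuron of medial origin-like cells, which had too few cells for a fit, Nrp2 was at 4.46 and 6.82 CPM against 32.9 and 50.4. That class held 61, 50, 83 and 26 cells in control 1, control 2, cKO 1 and cKO 2, and all genes together had only 218418 counts in cKO 2. Both cKO libraries lay above both controls for Nrp2 in 5 of the 12 named classes and below in none. Plxnb1 had the same record, Efnb1 lay above in 6 and below in 1, and 2.08% of all 14508 genes lay above in at least 5 classes and below in none. These classes share their 4 libraries. Whether the difference varied between classes was not tested, and over all D1Tom cells Nrp2 overlapped between groups.

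**Figure D4:**
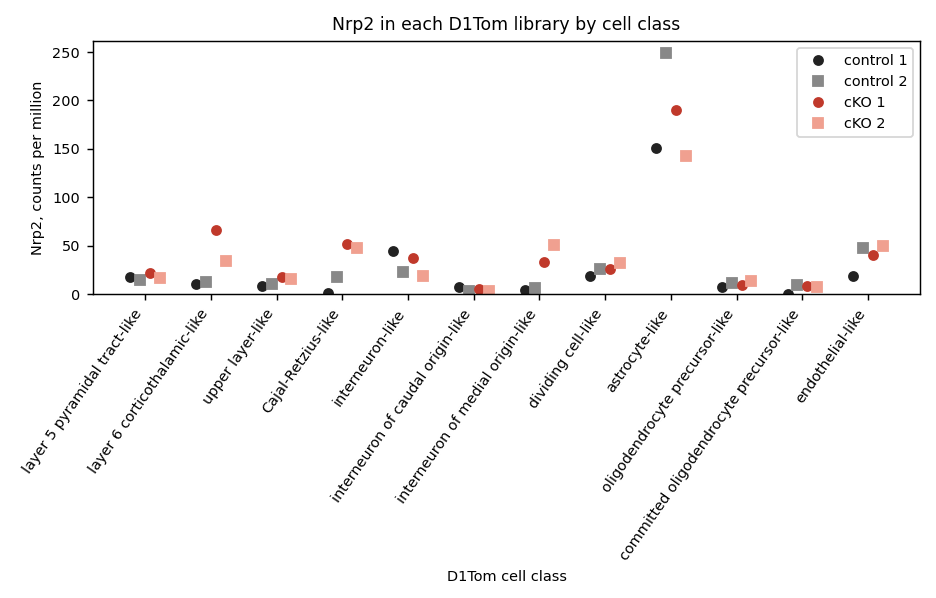
Nrp2 level (CPM) in each D1Tom library for 12 cell classes, with controls in black and grey and cKO in red and pink. Astrocyte-like cells are highest in every library, and the cKO points of layer 6 corticothalamic-like, Cajal-Retzius-like and interneuron of medial origin-like cells lie above both control points.

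Interneuron-like cells had the most members at an unadjusted p under 0.05, 15 of 48, against 17.5% of all 10514 genes. Both cKO libraries lay above both controls for 11 members (22.7% of all genes) and below for 17 (25.8%). With the replicate block 17 members passed the adjusted threshold, against 18.5% of genes, and DESeq2 called 3, against 2.21%. Efnb1 was at 16.0 and 17.0 CPM in controls and 47.8 and 58.2 in cKO (log2 fold change 1.74, SE 0.31, adjusted p = 0.084), and Plxnb2 at 12.3 and 17.0 against 36.1 and 59.3 CPM (1.78, SE 0.40, adjusted p = 0.109). Sema5a had the opposite order, at 306 and 202 CPM in controls and 118 and 85.4 in cKO (-1.29, SE 0.26, adjusted p = 0.0941).

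The 2 clusters of that class were unevenly filled. Cluster 12, led by Igfbpl1, Dlx2, Sp9 and Sp8, held 24 and 15 control cells and 135 and 148 cKO cells, while cluster 16, led by Lamp5, held 86 and 62 control and 49 and 53 cKO cells. Over all libraries Efnb1 was at 68.4 CPM in cluster 12 and 13.8 in cluster 16, Plxnb2 at 60.9 and 13.8, and Sema5a at 23.0 and 286. Without cluster 12 edgeR with the replicate block called 0 of 39 members, against 0.0463% of all genes, with 5 at an unadjusted p under 0.05 (4.4% of all genes). Without the block the log2 fold changes of Efnb1, Plxnb2 and Sema5a were 0.15, 0.69 and -0.045 (adjusted p = 1 for each, chosen after seeing the data). Foxp2 in this class was at 27.7 and 35.8 CPM in controls and 143 and 53.8 in cKO.

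By edgeR, upper layer-like cells had 7 of 52 members at an unadjusted p under 0.05, 4 higher and 3 lower in cKO, against 2.92% of all genes. Both cKO libraries lay above both controls for 6 members and below for 11 (16.6% and 13% of all genes). The part of cluster 27, which held 0 cKO cells, in these and the other upper layer-like values below was not tested. Without cKO 2, 1 member, Efna5, was called there, and 0.136% of all genes. In astrocyte-like cells 4 of 41 had an unadjusted p under 0.05 (8.43% of all genes), with 8 above and 7 below (17% and 21.1%). These cells had Efna5 at 28.4 and 28.4 CPM in controls and 9.38 and 15.4 in cKO (log2 fold change -1.17, SE 0.38, adjusted p = 0.295). In them Ntn1 was at 2.79 and 2.89 against 7.94 and 9.07 CPM, and Efnb1 at 38.6 and 35.1 against 25.3 and 20.2. Dividing cell-like cells had Plxna4 at 28.3 and 41.1 against 19.9 and 24.7 CPM, an order that Cajal-Retzius-like cells shared (59.0 and 78.9 against 37.6 and 43.0 CPM). Upper layer-like cells had Epha3 at 72.5 and 59.1 against 53.7 and 36.0 CPM, and oligodendrocyte precursor-like cells at 15.2 and 18.3 against 10.1 and 8.89. Slit2 was at 27.4 and 23.2 against 16.0 and 18.02 CPM in upper layer-like cells. In layer 5 pyramidal tract-like cells Sema4d had the smallest p, at 27.7 and 23.1 against 17.8 and 16.8 CPM (log2 fold change -0.55, adjusted p = 0.999). Interneuron of caudal origin-like cells had Efnb3 at 144 and 155 against 114 and 96.7 CPM (-0.50, adjusted p = 1).

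Among unnamed clusters, cluster 9, led by Oprk1 and Cyp26b1, had Sema3e at 0 and 2.63 CPM in controls and 6.43 and 9.65 in cKO (adjusted p = 0.999, or 0.0279 with the replicate block, which called 1 member here and 0.329% of all genes). This came from 0, 7, 17 and 9 counts in control 1, control 2, cKO 1 and cKO 2. Cluster 1, led by genes of the respiratory chain such as Cox6a1 and Cox8a, had Robo1 at 39.7 and 82.5 against 21.8 and 37.1 CPM (log2 fold change -0.90, adjusted p = 1). Cluster 4 held only 402032 counts over all genes in control 2 and 365359 in cKO 2, so its levels there rest on few counts. It had Dcc at 11.5 and 4.97 against 31.1 and 21.9 CPM and Efna2 at 51.3 and 54.7 against 25.9 and 30.1. Cluster 3 had Ntn1 and Ntn4 and cluster 0 Sema3c and Ntn4 above both controls in both cKO libraries.

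Over all GTE cells edgeR called 0 of the 56 members tested, against 0.0332% of all 12042 genes, and 3 had an unadjusted p under 0.05, against 5.22%. DESeq2 called 0. Both cKO libraries lay above both controls for 10 members (19.6% of all genes) and below for 8 (6.67% of all genes). Sema5b was at 1.97 and 3.07 CPM in controls and 13.6 and 6.72 in cKO (log2 fold change 1.57, SE 0.67, adjusted p = 0.896). Sema4d was at 1.81 and 7.99 against 23.9 and 8.13 CPM, and Plxnb3 at 0.821 and 2.05 against 11.8 and 1.77 (adjusted p = 0.914 for each). Both were high in cKO 1 alone.

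Unc5c, a repulsive netrin receptor, had the same shape, at 6.89 and 15.2 CPM in controls, 46.5 in cKO 1 and 16.3 in cKO 2. Sema6d was at 41.9 and 106 CPM in controls, 337 in cKO 1 and 93.5 in cKO 2. Oligodendrocyte precursor markers summed to 4268 CPM in cKO 1 against 1188 to 1627 in the other GTE libraries, and committed oligodendrocyte precursor markers to 956 against 66.1 to 209. Plxnb3, Sema4d and Sema5b were highest in the committed class in D1Tom among named classes, and the part of these cells in the GTE values was not tested. By edgeR, 0 members had an unadjusted p under 0.05 without cKO 1 (0.997% of all genes) and 12 when cKO 2 was left out (11.6%). Leaving out control 1 gave 1 (2.83%) and leaving out control 2 gave 8 (7.27%).

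On the low side in GTE, Plxnd1 was at 23.0 and 16.6 CPM in controls and 6.51 and 15.9 in cKO, and Efna3 at 15.4 and 21.5 against 11.4 and 10.96. Sema6c (12.1 and 12.7 against 4.34 and 9.90 CPM) and Sema4f (7.71 and 11.5 against 7.10 and 4.95 CPM) did not overlap between groups either. Their log2 fold changes ran from -1.09 to -1.05, with adjusted p from 0.942 to 0.966. Epha7 overlapped, at 11.2 and 45.5 against 19.7 and 16.4 CPM. The excitatory neuron markers summed to 254 and 430 CPM in controls, 130 in cKO 1 and 267 in cKO 2.

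**Figure D5:**
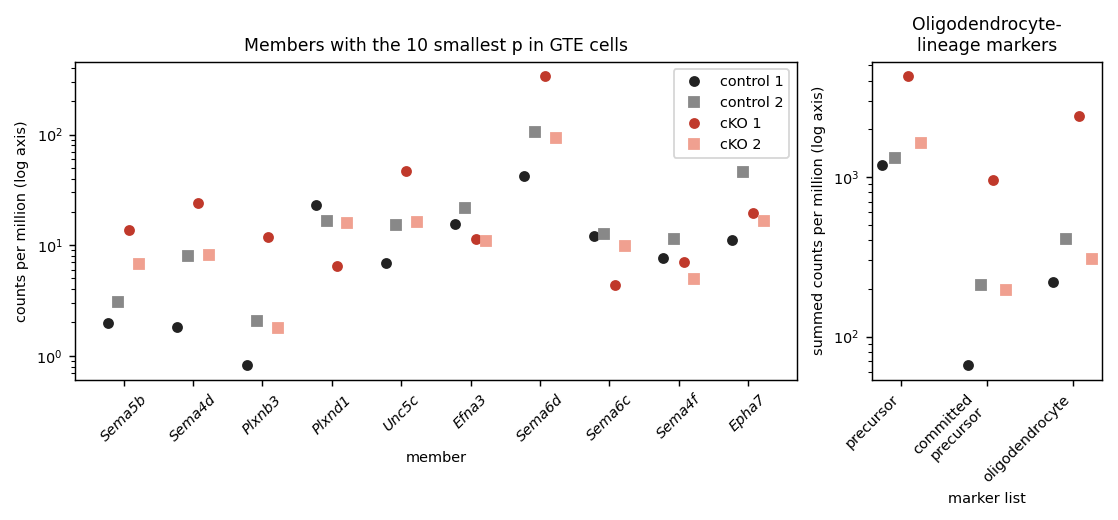
Left, CPM of the 10 members with the smallest p in each GTE library (log axis). Right, summed CPM of 3 oligodendrocyte-lineage marker lists in the same libraries (log axis), where cKO 1 is highest for each list, as it is for Sema4d, Plxnb3, Unc5c and Sema6d.

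The genotype effect was also compared between the sorts. None of 63 members differed at the adjusted threshold by edgeR (0 percent of all 14026 genes), and 1, Sema5b, had an unadjusted p under 0.05 (3.22% of all genes), with a difference of -1.15 in log2 fold change (D1Tom minus GTE, SE 0.51, adjusted p = 0.941). DESeq2 also called 0. Sema3b had opposite orders, at 2.78 and 1.78 CPM in controls and 1.59 and 1.54 in cKO in D1Tom, and 0.328 and 0.615 against 1.78 and 1.77 CPM in GTE (difference -2.05, SE 0.95, adjusted p = 0.941). It was low in both sorts, and in GTE libraries of 4878370 to 6092396 counts these levels rest on few counts. The share of all genes with opposite orders is not given here.

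Downstream of the receptors, none of 32 effector genes was called in D1Tom, with 3 above and 9 below both controls, against 9.7% and 13.7% of all genes, and a median log2 fold change of -0.096. Vasp, an actin regulator, was at 47.9 and 46.7 CPM in controls and 38.8 and 35.1 in cKO. Srgap1, a Slit-Robo effector, was at 78.8 and 90.9 against 70.4 and 59.5, and Farp1, a plexin partner, at 55.2 and 55.1 against 49.6 and 41.7. None of 23 co-receptors and other cues was called, with 0 above and 4 below (9.7% and 13.7% of all genes), and the smallest p belonged to the adhesion molecule Cntn2 (35.3 and 27.8 against 25.9 and 15.8 CPM, adjusted p = 0.998), followed by Dscaml1 and Flrt3.

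In GTE edgeR called none of these 32 effectors or 23 co-receptors and other cues. The smallest p among the co-receptors and other cues belonged to Kdr, a receptor of endothelial cells, at 8.70 and 3.07 CPM in controls and 0 and 1.59 in cKO (adjusted p = 0.262). Endothelial markers were at 109 CPM in control 1 against 25.2 to 31.8 in the other GTE libraries. Met was at 15.3 and 24.0 against 3.94 and 8.13 CPM (adjusted p = 0.535), and L1cam overlapped. The effectors Ngef (46.3 and 48.8 against 33.5 and 31.8 CPM), Chn1 (120 and 153 against 77.1 and 95.7 CPM) and Dpysl5 came next, with adjusted p from 0.966 to 0.984.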

How the data were processed

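The authors deposited 2 tables of counts, with genes by cells, 1 per sort, made from 10x Genomics 3′ v2 libraries, per the labels' protocols. Per the submitters' processing notes they used Cell Ranger 2.1.1, UMI-tools 0.5.4, STAR 2.5.2b and featureCounts (Subread 1.6.2) with builds mm10 and GRCm38.p6. Values of 2 were 0.307 to 1.69 times as frequent as values of 1, so it is uncertain that the deposited counts are plain UMI counts, and no counting intervals are given.

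D1Tom cells were clustered with scanpy 1.11.5 (2000 variable genes, 30 principal components, 20 neighbours, Leiden resolution 1), leaving out the guidance genes. A doublet caller marked 0 to 6 cells per library and was not used, and an alternative left out the highest scores. Counts were summed per library and class and tested with edgeR 4.0.16 (quasi-likelihood, TMM, filterByExpr, Benjamini-Hochberg at 0.05) and, as an alternative, DESeq2 1.42.0. The fits were also run on simulated counts with a fixed dispersion for all genes and no batch or composition differences, so these were not tested. With 2 against 2 libraries an exact permutation test cannot go below p = 0.333, and p-values measure the spread between libraries. The replicate block uses up a further degree of freedom, so its p-values rest more on variation shared across genes.

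Per the labels, D1Tom control 1 and cKO 1 shared a preparation day, as did control 2 and cKO 2, so these numbers pair the libraries (correlation of deviations 0.499 across 14508 genes). In the second pair cKO 2 was the only male D1Tom library, so the block does not separate sex from genotype there. The GTE batches are unclear. Members and lists were chosen with earlier results of these data known. Genes were named by p rank in all cells (20 in D1Tom, 10 in GTE), the 3 smallest p with separate groups per class, the 4 largest ratios to the next class at 20 CPM or more, and the 4 largest called differences per direction in each pair. Levels need 15 cells per library and fits 30.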

Additional observations from a re-analysis of the deposited data

How the results depend on the processing

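Over all D1Tom cells and over all GTE cells 0 members were called with DESeq2, its size factors, no filter on low counts, the replicate block, each library left out, or the highest doublet scores left out. In the test between sorts DESeq2, the replicate block and each library left out were run, also with 0. The pair counts stayed within 1.5 times of their main values. Within classes 0 calls became 3 with DESeq2, 10 without the filter on low counts, 21 with the replicate block, and 1 to 4 with a library left out. Calls over all genes rose as well, in interneuron-like cells from 11 to 196, 937 and 1950, and to 415 without cKO 1 and 290 without control 2. Of the 21 members 17 were in those cells, where without cluster 12 the block gave 0. Robo1 in cluster 1 (adjusted p 0.0016 without control 1) and Nrp2 in layer 6 corticothalamic-like cells (adjusted p 0.0366 without control 1 and 0.000187 without control 2) were among the calls with a library left out, where the arm with 1 library is assumed to vary like the other. Epha7 in GTE turned from -0.91 to 0.15 (log2) without control 2, and ran from -1.51 to 0.15 over the 4 libraries left out in turn. Over all D1Tom cells 8 members (3.73% of all genes) had an unadjusted p under 0.05 without cKO 1, against 0 in the fit reported. In GTE, where numbers do not pair the libraries (correlation -0.347 across 12042 genes), the block gave 0 members called. The median of the GTE members was -0.33 without control 1 and 0.43 without control 2, so the GTE direction depends on single libraries. GTE libraries of 4878370 to 6092396 counts left 12 of the 68 members too low to test.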
